A study of Mus musculus with 12 samples.

Results

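The genes described here encode the proteins of the mitochondrial ribosome, and were taken as every gene of the deposited count table whose symbol begins with Mrps or Mrpl and a digit. There were 76 such genes among the 23420 of the table, 29 named Mrps after the small subunit and 47 named Mrpl after the large subunit. RNA was sequenced from monocytic myeloid-derived suppressor cells (M-MDSCs), sorted as CD11b+Ly6G-Ly6Chi cells from bone marrow, for which the labels give the tibia as the source, of male C57BL/6JNIA mice, a wild-type strain kept by the National Institute on Aging. Aged mice were 24 months old and young mice were 6 months old, with 6 mice in each group, and the labels list no introduced allele or treatment. The sorted population is immature and mixed, so that a gene's level is an average over the cells of the gate, and fewer cells of a type cannot be told apart from less RNA per cell. Library totals were 4613239 to 9079237 counts in young mice and 8737941 to 16300374 in aged mice, and the member genes together took 2893 to 5958 counts of a young library and 7168 to 11251 of an aged one. Levels are given as CPM, that is counts relative to the library total after TMM scaling, and differences as log2 fold changes, aged minus young, from edgeR's quasi-likelihood test fitted to all genes, with p-values adjusted by Benjamini-Hochberg over the 9742 genes tested and a threshold of 0.05.

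The mitochondrial ribosome translates the few messenger RNAs of the mitochondrial genome, all of which encode core subunits of the respiratory chain and the ATP synthase. Its RNAs are made inside the organelle, whereas its proteins are encoded in the nucleus, made in the cytosol and imported. A part of these proteins descends from the bacterial ribosome, and the rest were added in the course of mitochondrial evolution, many of them on the outer surface of the particle. The small subunit reads the messenger RNA, and the large subunit forms the peptide bond and passes the new chain to the inner membrane.

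Nearly all mitoribosomal genes that passed the test were higher in M-MDSCs from aged mice. Of the 72 genes that passed the filter on low counts, 31 were higher in aged mice, against 22.4% of all genes tested, and 2 were lower, against 23.0% of all genes tested. The remaining 39 did not pass the test, and 65 of the 72 had a positive log2 fold change. The median log2 fold change of the 72 genes was 0.41, from -1.12 to 0.78, whereas the median of all genes tested was 0.01. Every aged mouse lay above every young mouse for 13 of the genes, against 9.68% of all genes tested, and below every young mouse for 1 gene, Mrps25, against 12.1% of all genes tested. Summed over the 76 genes, the level was 503 to 694 CPM in young mice (median 614) and 704 to 834 CPM in aged mice (median 817), so that the lowest aged mouse lay just above the highest young mouse.

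These counts moved with the length of the genes. Mitoribosomal genes are short, with a median summed exon length of 1060 bases against 2890 over all genes tested, and short genes tended to be higher in the aged libraries. Among the 337 tested genes under 700 bases, 64.7% were higher in aged mice, and 9 of the 13 mitoribosomal genes of that length were. With a smooth trend of length removed from each library, 8 of the 72 genes were higher, against 19.2% of all genes tested, and 4 were lower, against 14.8%. The median of the 72 genes was then 0.09. Young mice 5 and 6 stood furthest along this length trend, and without both of them 15 of the 72 genes were higher, against 14.1% of all genes, 1 was lower, against 17.9%, and the median was 0.28. The part of the length trend in the difference between the ages was not tested beyond these values.

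**Figure D1:**
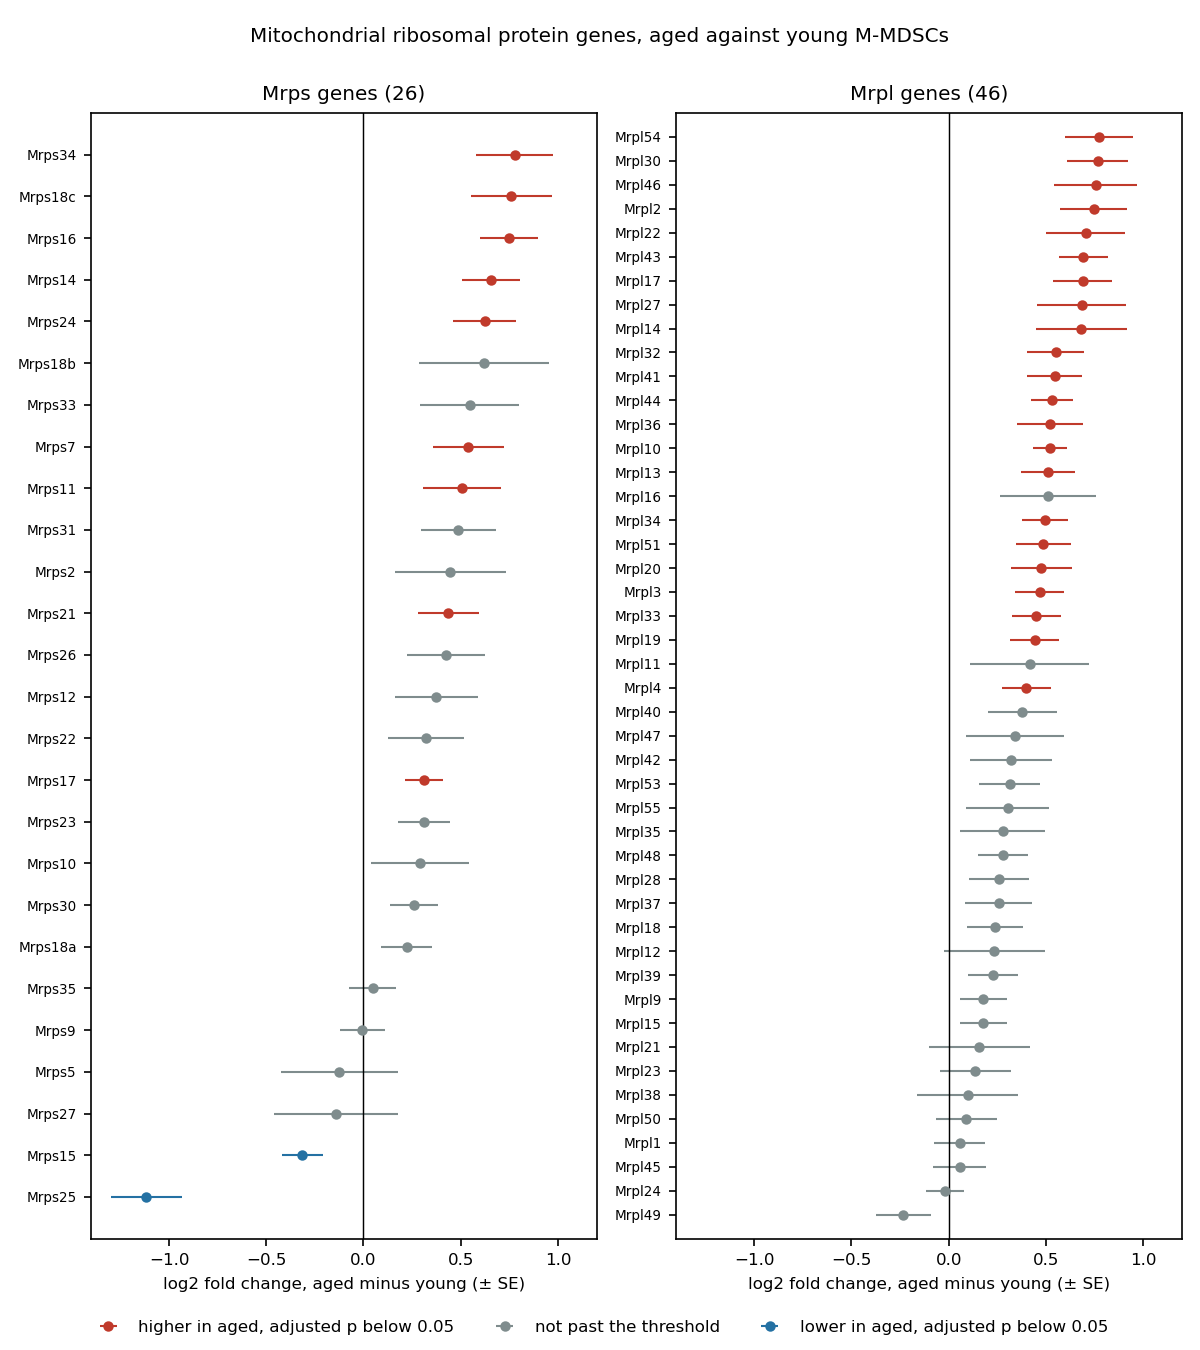
Log2 fold change, aged minus young, of the 26 Mrps and 46 Mrpl genes tested, ordered within each subunit. Points are edgeR estimates and bars are standard errors from 6 aged and 6 young mice. The highest genes of both subunits lie near 0.78, and Mrps25 lies alone at -1.12.

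The promoters of a few of the genes that the results turn on are shown because most members that passed the test moved in a single direction. Windows from 250 bases before to 50 bases after the annotated start were matched by symbol in the RefSeq promoter set (GRCm38.p6) for 67 of the 76 genes, and Mrpl4, Mrpl13, Mrpl15, Mrpl19, Mrpl38, Mrpl54, Mrps28, Mrps34 and Mrps35 had no match. In 4 windows the start lay more than 100 bases from that of the count table. The longest stretch upstream of the start that holds no annotated exon is printed 5′ to 3′ on the strand of the gene. Capitals mark the letters GCGCANGCG, in which N is any base (the core of binding sites of NRF1, a regulator of nuclear genes for mitochondria), and CCGGAAG (the core of sites for ETS factors such as GABP), found on either strand. Mrpl17 (chr7:105811100-105811337, minus strand) and Mrpl43 (chr19:45006443-45006557, minus strand) were higher in aged mice with and without the length trend, Mrpl22 (chr11:58171414-58171653, plus strand) was among the 5 largest rises of its subunit, Mrpl10 (chr11:97041408-97041559, plus strand) had the smallest p-value among the genes that were higher, and Mrps25 (chr6:92184034-92184273, minus strand) and Mrps15 (chr4:126046678-126046924, plus strand) were the 2 genes that were lower.
Mrpl17: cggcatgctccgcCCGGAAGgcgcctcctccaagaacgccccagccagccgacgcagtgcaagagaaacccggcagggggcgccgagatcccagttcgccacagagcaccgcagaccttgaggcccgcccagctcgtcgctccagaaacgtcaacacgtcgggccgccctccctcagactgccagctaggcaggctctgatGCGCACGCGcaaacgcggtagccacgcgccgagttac
Mrpl43: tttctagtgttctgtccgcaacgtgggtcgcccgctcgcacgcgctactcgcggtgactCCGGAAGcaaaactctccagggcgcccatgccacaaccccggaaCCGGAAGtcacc
Mrpl22: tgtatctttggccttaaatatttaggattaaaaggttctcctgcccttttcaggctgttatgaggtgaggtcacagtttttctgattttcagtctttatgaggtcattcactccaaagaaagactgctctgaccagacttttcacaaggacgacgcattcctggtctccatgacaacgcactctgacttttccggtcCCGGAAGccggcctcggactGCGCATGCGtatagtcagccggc
Mrpl10: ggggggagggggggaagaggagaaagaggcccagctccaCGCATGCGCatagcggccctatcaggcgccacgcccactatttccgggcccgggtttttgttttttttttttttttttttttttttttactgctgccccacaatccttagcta
Mrps25: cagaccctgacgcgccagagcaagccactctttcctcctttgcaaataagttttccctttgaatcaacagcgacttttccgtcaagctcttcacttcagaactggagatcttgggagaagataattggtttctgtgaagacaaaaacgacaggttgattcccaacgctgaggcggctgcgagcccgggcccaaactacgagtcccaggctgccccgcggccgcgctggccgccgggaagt
Mrps15: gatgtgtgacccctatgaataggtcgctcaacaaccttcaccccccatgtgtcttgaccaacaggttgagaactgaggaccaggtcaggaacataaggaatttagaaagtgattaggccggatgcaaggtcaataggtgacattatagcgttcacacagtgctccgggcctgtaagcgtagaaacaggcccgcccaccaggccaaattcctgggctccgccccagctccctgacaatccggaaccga

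In these stretches Mrpl17 and Mrpl22 held a match to both motifs, Mrpl43 held 2 ETS matches on the same strand, Mrpl10 held 1 NRF1 match on the other strand, and Mrps25 and Mrps15 held neither motif. The genes printed are a selection and do not stand for all that were higher. Mrps14 and Mrpl41, higher with and without the length trend, held neither motif in their windows. Neither did Mrpl2 and Mrpl46, which were among the largest rises of their subunit. Over the whole windows, searched on both strands, the NRF1 letters were found in 15 of 67 mitoribosomal genes (22.4%) and in 15.4% of the 7901 tested genes with a window. The ETS letters were found in 23 (34.3%) against 21.6% of tested genes. The letters AAGATGGCG of the YY1 site, whose first 3 letters can be the last 3 of the ETS motif, were found in 8 (11.9%) against 3.91%. At least 1 of these 3 motifs was in 39 of the 67 windows (58.2%) and in 35.9% of the windows of all tested genes. The Sp1 site or GC box GGGCGG was found in 33 windows (49.3%) against 66.6%, the E-box CACGTG in 5 (7.46%) against 10.4%, and the TATA box TATAAA in 4 (5.97%) against 6.97%. The members called higher and the members not called held the ETS motif in 11 of 26 and 11 of 36 windows, the NRF1 motif in 8 of 26 and 7 of 36 and the YY1 motif in 3 of 26 and 5 of 36, and neither of the 2 genes that were lower held an NRF1, ETS or YY1 match. These are matches of letters in a fixed window and were not tested for binding or for a part in the difference between the ages.

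The genes of the small subunit were examined first. Of the 26 Mrps genes tested, 9 were higher in aged mice, 2 were lower and 15 did not pass the test, with a median log2 fold change of 0.40. Over all genes tested 22.4% were higher and 23.0% were lower. The genes listed as kept from the bacterial small subunit accounted for 8 of the 9, out of 14 tested (median 0.44), and for 1 of the 2 that were lower. Among the 10 tested small-subunit genes listed as mitochondria-specific, Mrps34 was higher, Mrps25 was lower and the other 8 did not pass (median 0.37). This list also held Mrps18b, although it is a homolog of bacterial S18. With the GC correction 2 of the 10 were higher.

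Mrps34, a mitochondria-specific protein needed for a stable small subunit, was 2.15 to 4.85 CPM in young mice (median 3.83) and 4.91 to 8.24 CPM in aged mice (median 5.77). The groups did not overlap, and the log2 fold change was 0.78 (SE 0.20, adjusted p = 0.00522). Mrps18c, a homolog of bacterial protein S18, was 4.88 to 16.6 CPM in young mice (median 12.2) and 16.8 to 21.9 CPM in aged mice (median 18.2). The 2 groups were just apart, with the lowest values in young mice 6 and 5, and the log2 fold change was 0.76 (SE 0.21, adjusted p = 0.00824). Mrps16, needed for assembly of the small subunit, was 6.51 to 10.9 CPM in young mice and 11.9 to 18.6 CPM in aged mice, also without overlap (log2 fold change 0.75, adjusted p = 0.0012). Mrps14, which lies in the head of the subunit, was 6.39 to 11.8 CPM in young and 12.3 to 17.6 CPM in aged mice (log2 fold change 0.66, adjusted p = 0.00255). Mrps14 was the single Mrps gene that stayed higher with the length trend removed, at 0.56 (adjusted p = 0.00777). Mrps24, a homolog of bacterial S3, overlapped between the ages, at 5.31 to 9.81 CPM in young and 8.38 to 14.5 CPM in aged mice (log2 fold change 0.62, adjusted p = 0.00621), and missed the threshold after thinning (adjusted p = 0.0619). With the length trend removed, Mrps34, Mrps18c, Mrps16 and Mrps24 were at 0.41, 0.20, 0.20 and 0.31 and did not pass the test.

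Mrps21, the most abundant small-subunit messenger RNA per length, was also higher (log2 fold change 0.44, adjusted p = 0.0344). Its groups overlapped, at 13.1 to 26.7 CPM in young and 21.4 to 30.1 CPM in aged mice. The call was lost in 7 of the 12 fits that each left out a single mouse, with adjusted p-values of up to 0.0801, and the estimate was -0.20 with the length trend removed. Mrps7, Mrps11 and Mrps17, all with bacterial counterparts, completed the genes that were higher, at 0.54, 0.51 and 0.31. The adjusted p of Mrps11 was 0.04999, at the threshold. None of these 4 genes passed with the length trend removed (Mrps7, Mrps11 and Mrps17 at 0.31, 0.21 and 0.05) or without young mice 5 and 6 (adjusted p = 0.0972 to 0.274).

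Mrps25 went against the other genes. This mitochondria-specific protein of the small subunit was 4.37 to 7.04 CPM in young mice (median 5.27) and 1.75 to 3.12 CPM in aged mice (median 2.56). All 6 aged mice lay below all 6 young mice, and the log2 fold change was -1.12 (SE 0.18, adjusted p = 0.000302), the largest change in either direction among the 72 genes. It is also a long gene in the table, at 6065 bases, and genes of 3000 bases or more were lower in aged mice in 37.9% of cases. With the length trend removed it was still lower, at -0.82 (adjusted p = 0.00258), and without young mice 5 and 6 it was at -0.99 (adjusted p = 0.00268). Mrps15, a homolog of bacterial S15 that binds the RNA of the small subunit, was 10.6 to 15.6 CPM in young and 9.50 to 11.6 CPM in aged mice. The groups overlapped and the log2 fold change was -0.31 (SE 0.11, adjusted p = 0.0243). Unlike Mrps25 it is short, at 938 bases, and its estimate grew to -0.67 with the length trend removed (adjusted p = 0.00105). The call of Mrps15 was lost on leaving out young mouse 2, young mouse 5, aged mouse 4 or aged mouse 6, with adjusted p-values between 0.0525 and 0.0571, and without young mice 5 and 6 together (adjusted p = 0.0535).

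**Figure D2:**
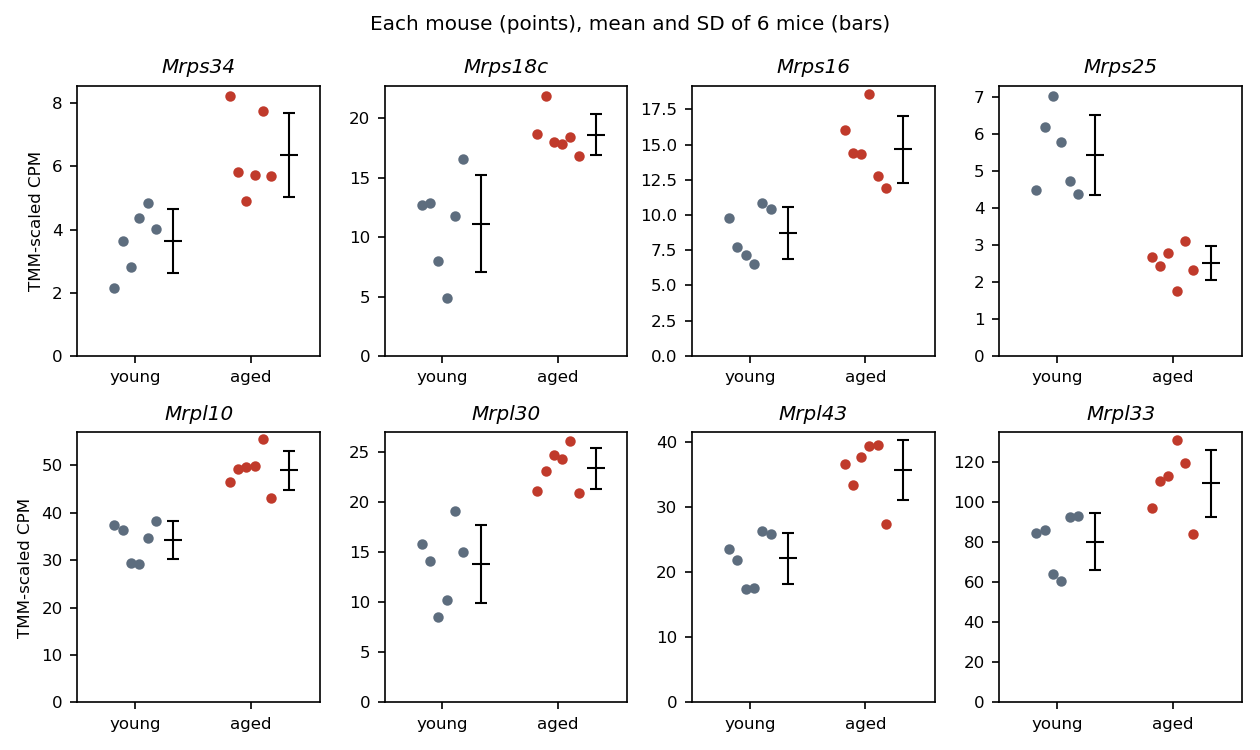
TMM-scaled CPM of 8 mitoribosomal genes in each of 6 young and 6 aged mice (points), with the mean and SD at the right of each group. In the Mrps25 panel every aged mouse lies below every young mouse, and in the panels of Mrps34, Mrps18c, Mrps16, Mrpl10, Mrpl30 and Mrpl43 every aged mouse lies above every young mouse.

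The small-subunit genes that did not pass included well-measured ones. Mrps23 was 13.02 to 22.3 CPM in young and 16.6 to 24.4 CPM in aged mice (log2 fold change 0.31, adjusted p = 0.0688). Mrps12, whose bacterial homolog helps the ribosome to read the codon, gave 0.38 (adjusted p = 0.162). Mrps23 passed without young mouse 2, young mouse 10 or aged mouse 7 (lowest adjusted p = 0.0235), and Mrps12 without young mouse 9 (adjusted p = 0.033). Mrps9 and Mrps35 had close means in young and aged mice, at 11.8 and 11.8 and at 8.68 and 8.94 CPM, with log2 fold changes of -0.01 (SE 0.11) and 0.05 (SE 0.12). Mrps27, an RNA-binding protein of the pentatricopeptide repeat family, had an estimate of -0.14 (SE 0.32) at 1.17 to 2.35 CPM in young and 0.64 to 2.56 CPM in aged mice. The bacterial protein S18 has 3 homologs in mammals. Mrps18c was higher, as above, Mrps18b gave 0.62 with a wide error (SE 0.34, adjusted p = 0.143) at a mean of 0.83 CPM in young and 1.34 CPM in aged mice, and Mrps18a gave 0.22 (SE 0.13, adjusted p = 0.179). Structures of the particle place Mrps18a and also Mrps30 in the large subunit in spite of their names, and Mrps30 gave 0.26 (SE 0.12, adjusted p = 0.101) and passed with the GC correction (0.32, adjusted p = 0.043).

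The genes of the large subunit came next. Of the 46 Mrpl genes tested, 22 were higher in aged mice, none was lower and 24 did not pass the test, against 22.4% higher and 23.0% lower over all genes tested, with a median log2 fold change of 0.41. The estimates of 44 were positive, and the count lower was 0 with edgeR, 0 at an unadjusted p under 0.05 and 0 with DESeq2, which called 19.7% of all genes higher and 18.2% lower. Proteins with a bacterial counterpart gave 16 of 30 (median 0.45). The other 18 tested large-subunit genes gave 6 (median 0.30). They were listed as mitochondria-specific, and this list also held Mrps30 and Mrps18a, although the latter is a homolog of bacterial S18. With the length trend removed 4 of the 30 and 3 of the 18 were higher, against 19.2% of all genes. Without young mice 5 and 6 the counts were 6 and 4, against 14.1% of all genes.

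Mrpl54, a mitochondria-specific protein, was 2.14 to 4.27 CPM in young mice (median 3.05) and 4.50 to 6.63 CPM in aged mice (median 5.28). The groups did not overlap, and the log2 fold change was 0.77 (SE 0.17, adjusted p = 0.00264). Mrpl30, a homolog of bacterial L30, was 8.56 to 19.2 CPM in young mice (median 14.6) and 20.9 to 26.1 CPM in aged mice (median 23.7). It was 1.70-fold higher in aged mice, again without overlap (log2 fold change 0.77, SE 0.16, adjusted p = 0.00145). Mrpl46 was 1.22 to 2.89 CPM in young and 2.88 to 4.34 CPM in aged mice, with the groups touching (log2 fold change 0.76, adjusted p = 0.00978). Mrpl2, which lies beside the centre where the peptide bond is formed, was 1.73 to 2.73 CPM in young and 3.03 to 4.49 CPM in aged mice (log2 fold change 0.75, adjusted p = 0.00314). Mrpl22, a protein of the exit tunnel, was 1.73 to 4.71 CPM in young and 4.44 to 6.64 CPM in aged mice, with overlap (log2 fold change 0.71, adjusted p = 0.0113). Of these 5 genes Mrpl30 stayed higher with the length trend removed, at 0.32 (adjusted p = 0.0371). Mrpl22 and Mrpl46 lost the call without young mice 5 and 6, with adjusted p-values of 0.0536 and 0.0737.

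The smallest p-values of the large subunit belonged to 3 other genes. Mrpl10, a protein of the stalk that recruits translation factors, was 29.2 to 38.2 CPM in young mice (median 35.6) and 43.1 to 55.6 CPM in aged mice (median 49.4). It was higher in every aged mouse than in every young mouse, by 0.52 on the log2 scale (SE 0.09, adjusted p = 0.000426). Mrpl43, a mitochondria-specific protein, was 17.4 to 26.3 CPM in young and 27.4 to 39.5 CPM in aged mice (log2 fold change 0.69, SE 0.12, adjusted p = 0.000614). Mrpl44, which resembles a ribonuclease III, was 9.95 to 13.7 CPM in young and 14.6 to 18.9 CPM in aged mice (log2 fold change 0.53, SE 0.11, adjusted p = 0.0012). All 3 were also without overlap between the ages, and all 3 stayed higher both with the length trend removed, at 0.37, 0.44 and 0.33, and without young mice 5 and 6, at 0.40, 0.52 and 0.49.

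With the length trend removed, the genes still higher were Mrps14, Mrpl10, Mrpl17, Mrpl19, Mrpl30, Mrpl41, Mrpl43 and Mrpl44, and all 8 were among the 31. Mrpl17 and Mrpl19 are long in the table, at 6712 and 5000 bases, and their estimates grew from 0.69 to 1.03 and from 0.44 to 0.65. A further 4 genes, of which Mrps25 and Mrps15 were already lower, were then lower, the others being Mrpl49 at -0.38 (adjusted p = 0.0415) and Mrpl24 at -0.37 (adjusted p = 0.0178). Of the 15 genes higher without young mice 5 and 6, all were among the 31, and 7 were higher in all 3 fits, namely Mrps14, Mrpl10, Mrpl17, Mrpl30, Mrpl41, Mrpl43 and Mrpl44. The other 8 were Mrps16, Mrps18c, Mrps24, Mrps34, Mrpl2, Mrpl32, Mrpl34 and Mrpl54. The genes of the 31 that missed the threshold without these mice had estimates of 0.20 to 0.55, with adjusted p-values of 0.0536 to 0.274.

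Mrpl33, a short homolog of bacterial L33, was by far the most abundant of the genes. It was 60.6 to 93.0 CPM in young mice (median 85.5) and 84.2 to 131 CPM in aged mice (median 112), and took 12.1% to 13.9% of the CPM of all 76 genes in young mice and 11.7% to 15.8% in aged mice. The groups overlapped, and the log2 fold change was 0.45 (SE 0.13, adjusted p = 0.00923). At 466 bases it is also among the shortest of the genes. Its estimate was -0.17 with the length trend removed (adjusted p = 0.123), and it did not pass without young mice 5 and 6 (0.27, adjusted p = 0.0537).

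Large-subunit genes that did not pass also included abundant ones. Mrpl24, which lies at the exit of the tunnel, was 18.8 to 25.2 CPM in young and 19.5 to 26.6 CPM in aged mice (log2 fold change -0.02, SE 0.10). Mrpl49 had the lowest estimate of the subunit, -0.23 (SE 0.14, adjusted p = 0.185), at 5.66 to 8.39 CPM in young and 5.23 to 7.79 CPM in aged mice. Mrpl45, which holds the ribosome at the inner membrane, gave 0.06 (SE 0.14). These 3 genes lay among the lowest of the large subunit, below its median of 0.41. Mrpl18, Mrpl28, Mrpl48 and Mrpl53 gave 0.24, 0.26, 0.28 and 0.31, with adjusted p-values of 0.0908 to 0.19, and of these Mrpl48 passed without young mouse 10 (adjusted p = 0.0412). After all libraries were thinned to the smallest total Mrpl28 and Mrpl48 passed, at 0.55 (adjusted p = 0.0163) and 0.41 (adjusted p = 0.0287).

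The 2 subunits were compared as descriptions, since their genes are not replicates. The medians of the Mrps and the Mrpl genes differed by -0.01 on the log2 scale, and by 0.04 in the other direction when Mrps18a and Mrps30 were counted with the large subunit (medians 0.43 and 0.39). The sum of the Mrps genes was 142 to 196 CPM in young and 196 to 237 CPM in aged mice, and that of the Mrpl genes 361 to 498 and 508 to 613 CPM. The sum of the Mrps genes divided by that of the Mrpl genes was 0.393 to 0.411 in young mice (median 0.396) and 0.354 to 0.397 in aged mice (median 0.379). In 4 of the 6 aged mice, namely mice 4, 5, 6 and 7, the ratio was below that of every young mouse, and aged mice 1 and 2 lay within the young range.

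Levels were compared between genes as CPM per kilobase of summed exon. Among the 46 tested Mrpl genes the mean level in young mice ran from 0.653 for Mrpl35 to 172 for Mrpl33, with a median of 4.71. Among the 26 tested Mrps genes it ran from 0.73 for Mrps2 to 47.6 for Mrps21, with a median of 4.28. In young mice messenger RNAs of proteins that enter the same particle thus differed in level by 65.2-fold in the small and 264-fold in the large subunit. The ranges in aged mice were 156-fold and 296-fold. In aged mice the ends were the same apart from Mrps25, which went from 0.897 to 0.414 CPM per kilobase and became the lowest of the tested genes, and the medians were 6.73 for Mrps and 6.22 for Mrpl genes. Mrpl33, Mrps21, Mrps18c and Mrpl30 were the 4 most abundant genes per kilobase over both ages, in this order, and Mrpl24 moved from rank 3 in young to rank 9 in aged mice with levels of 24.3 and 24.2 CPM per kilobase.

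**Figure D3:**
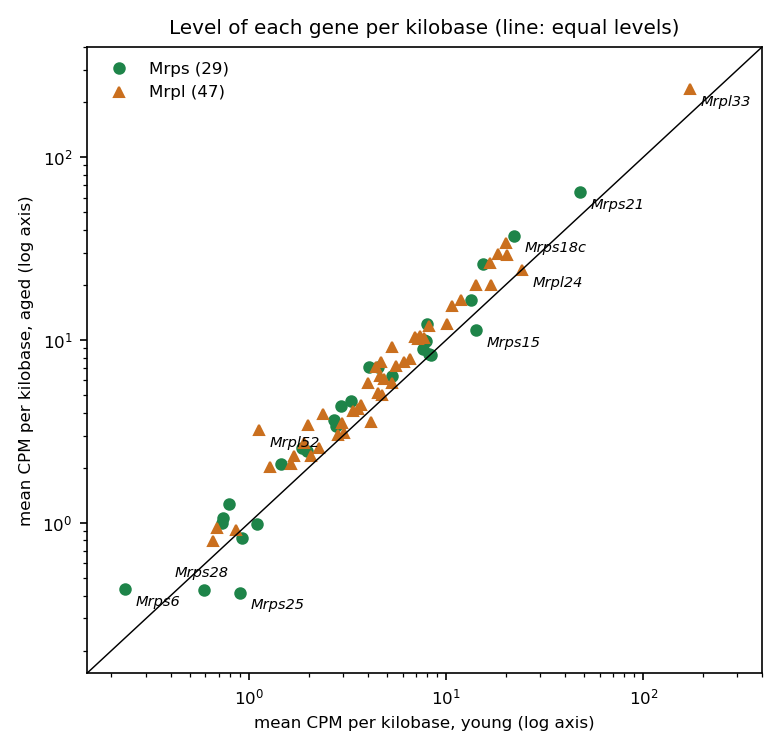
Mean CPM per kilobase of summed exon of all 76 genes in 6 young mice (horizontal, log axis) and 6 aged mice (vertical, log axis), with a line of equal levels. Most genes lie just above the line over the whole range of levels, Mrpl33 is the highest at both ages, and Mrps25 and Mrps15 lie below the line.

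A small number of genes were too low to test. Mrps36, which is named as a ribosomal protein but belongs to the 2-oxoglutarate dehydrogenase complex, had 2 to 8 counts in young and 3 to 15 in aged mice. Mrps6 had 0 to 5 and 1 to 8 counts, and Mrps28 0 to 8 and 0 to 11 counts. Mrpl52 had 2 to 4 counts in each young mouse and 3 to 28 in each aged mouse. Per library total its aged over young ratio was 3.07 (95% exact interval 1.87 to 5.28, counting error only), and it was higher in aged mice when all genes were tested without the filter (adjusted p = 0.018), whereas the intervals of the other 3 genes included 1. A further 8 of the 72 tested genes were not above the filter's level of 1.14 CPM in all 12 mice.

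The length trend was then followed mouse by mouse. For each library, the deviation of each gene from its mean over the 12 mice was set against the log2 of its length over all genes tested. The slope was 0.029 to 0.210 log2 units per doubling of length in young mice and -0.151 to -0.024 in aged mice, so that the groups did not overlap (exact permutation test, two-sided, p = 0.00216, the smallest that 6 against 6 mice allow). Young mice 5 and 6 had the steepest slopes, at 0.210 and 0.193, and their median mitoribosomal deviations were the lowest, at -0.36 and -0.42. Young mice 9 and 10 had slopes of 0.035 and 0.029 and median deviations of 0.00 and 0.00, and aged mouse 7, with a slope of -0.024, had the lowest deviation of the aged mice, at 0.08. Among the aged mice, mouse 5 had the most negative slope, -0.151, with a deviation of 0.22, and mouse 1 had -0.121 with 0.33. Over all 9742 tested genes the log2 fold change fell with length (Spearman's rho -0.48 across genes, which are not independent replicates, and -0.34 across the 72 members). The library totals also differed between the ages, with 4 of the 6 aged libraries above every young one, and the numbers that the file headers give to the libraries ran from 11 to 16 in young and from 17 to 19 and 24 to 26 in aged mice, so that any step done in this order cannot be told apart from age.

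**Figure D4:**
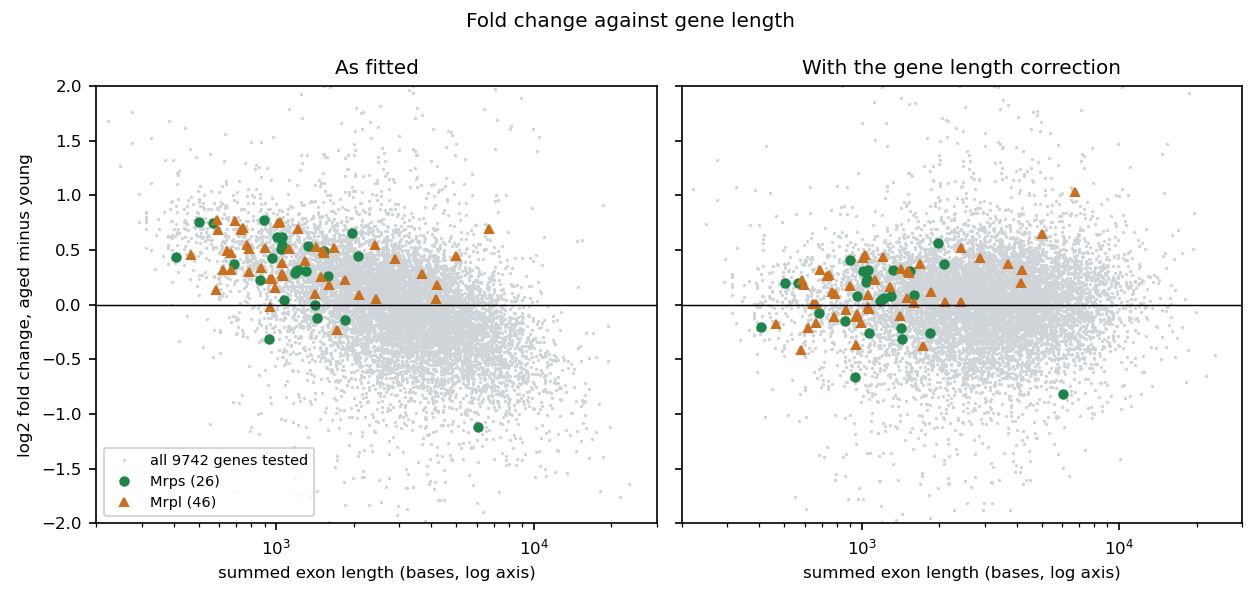
Log2 fold change, aged minus young, against summed exon length (log axis) for all 9742 genes tested (grey), the 26 Mrps genes (circles) and the 46 Mrpl genes (triangles), as fitted (left) and with the length trend removed from each library (right). On the left short genes lie above 0 and mitoribosomal genes lie among them, and on the right the members centre near 0.09. Genes beyond 2 log2 units in either direction, 48 on the left and 59 on the right, are outside the plotted range.

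The members were also counted within classes of length, beside all tested genes of the same class. Between 700 and 1000 bases 6 of 15 members were higher in aged mice against 53.8% of the 392 tested genes, and between 1000 and 1500 bases 9 of 23 against 42.1% of 942. Between 1500 and 3000 bases 5 of 15 were higher against 26.4% of 3426. Of the 6 members of 3000 bases or more, Mrpl17 and Mrpl19 were higher, against 9.77% of 4645 genes, and Mrps25 was lower. The median log2 fold changes of the members in the 5 classes, from short to long, were 0.48, 0.34, 0.38, 0.42 and 0.23, whereas those of all tested genes were 0.60, 0.42, 0.29, 0.09 and -0.17.

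**Figure D5:**
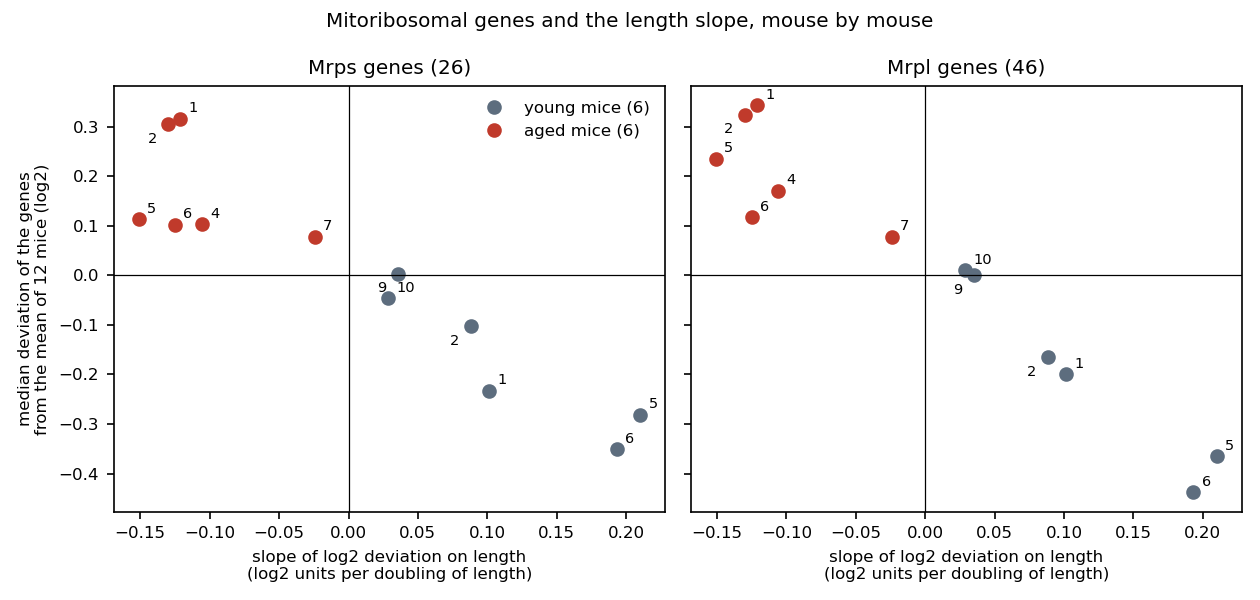
Median log2 deviation of the 26 Mrps genes (left) and the 46 Mrpl genes (right) from the mean of the 12 mice, against the slope of the deviation of all tested genes on length, with 1 point per mouse and its number. Young mice 5 and 6 lie lowest and furthest right, young mice 9 and 10 lie next to aged mouse 7, and the other 5 aged mice lie at the upper left.

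Markers of proliferation and of other cells were read in the same libraries. The summed level of 20 proliferation genes was 1188 to 1971 CPM in young and 751 to 1524 CPM in aged mice (exact permutation test, two-sided, p = 0.0303). It was highest in young mice 5 and 6, the libraries in which the mitoribosomal genes were lowest. The mean of Mki67 went from 398 CPM in young to 98.8 CPM in aged mice, and that of Top2a from 319 to 208 CPM. These genes made up most of the difference in the sum, and the median log2 fold change of the 20 genes was -0.09. Young mice 1 and 2 had the lowest sums of the young, 1188 and 1200 CPM. Their median mitoribosomal deviations were -0.22 and -0.14, below those of young mice 9 and 10. Mki67, Top2a, Kif11 and Bub1 were the 4 of the 20 that were lower, against 23.0% of all genes tested. Of these Mki67 alone passed without young mice 5 and 6 or with the length trend removed, and the medians of the 20 genes were then 0.02 and -0.17. The 5 tested markers of resident macrophages were all higher in aged mice, against 22.4% of all genes tested. Their summed level was 28.1 to 44.1 CPM in young and 35.4 to 666 CPM in aged mice. Of 8 neutrophil markers 4 were higher, against 22.4% of all genes tested, with a sum of 62990 to 85350 CPM in young and 78030 to 97550 CPM in aged mice. The 4 calls were lost without young mice 5 and 6 and with the length trend removed, and the medians of the 8 genes, 0.30 in all mice, were then 0.15 and 0.01. Of 7 classical monocyte markers 1 was higher and 1 was lower, against 22.4% and 23.0% of all genes tested, with a median of -0.22. The median was -0.05 with the length trend removed and -0.01 without young mice 5 and 6. The sum of these 7 markers was 4063 to 4284 CPM in young and 3425 to 4577 CPM in aged mice, and 5 of the 6 aged mice lay below every young mouse and 1 above. In every mouse this sum was far below that of the neutrophil markers, and the purity of the sort was not tested. The summed levels of 5 further lists were all at or under 14.5 CPM in every mouse. Erythroid markers were 0.390 to 1.12 CPM in young and 1.18 to 14.5 CPM in aged mice, without overlap, with Hba-a1 and Hba-a2 at 0 counts in every mouse. Dendritic cell markers were 3.12 to 7.53 CPM in young and 0.748 to 2.79 CPM in aged mice, also without overlap. The sums of the B cell, plasma cell, and T and NK cell lists overlapped between the ages. The part of these markers in the mitoribosomal difference was not tested.

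Other proteins of the mitochondrial ribosome carry names outside the Mrps and Mrpl series. Of 7 such genes, all tested, 3 were higher in aged mice, against 22.4% of all genes tested, and 0 were lower, against 23.0% (0 also at an unadjusted p under 0.05 and with DESeq2), and the median was 0.28. Aurkaip1, a small-subunit protein, was 20.8 to 39.4 CPM in young and 42.0 to 58.3 CPM in aged mice, without overlap (log2 fold change 0.59, adjusted p = 0.00677). Ict1, a peptidyl-tRNA hydrolase built into the large subunit, was 7.53 to 10.3 CPM in young and 9.72 to 15.6 CPM in aged mice. Its log2 fold change was 0.56 (adjusted p = 0.00266). That of Mrp63, also of the large subunit, was 0.40 (adjusted p = 0.0145). With the length trend removed Aurkaip1 and Ict1 were at 0.34 (adjusted p = 0.0597) and 0.11 (adjusted p = 0.535), and Mrp63 missed the threshold without young mice 5 and 6 (adjusted p = 0.112). Dap3, the GTPase of the small subunit, gave -0.01 (SE 0.16), and Ptcd3, a pentatricopeptide repeat protein of the small subunit, gave -0.31 (SE 0.19, adjusted p = 0.188).

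The genes that build and serve the ribosome were read from fixed lists. Of 18 tested assembly and ribosomal RNA factors, 3 were higher, against 22.4% of all genes tested, and 0 were lower, against 23.0% (0 also at an unadjusted p under 0.05 and with DESeq2). Their median was 0.19. With the length trend removed 2 of the 18 were higher, against 19.2% of all genes. In that fit 1 was lower, Rbfa at -0.16 (adjusted p = 0.0393), against 14.8% of all genes. Without TMM factors 1 of the 18 was higher. Mpv17l2, a membrane protein of ribosome assembly, gave 0.71 (adjusted p = 0.0122), the helicase Ddx28 gave 0.61 and the ribonuclease Ybey 0.56, whereas the ribosomal RNA methyltransferase Nsun4 gave -0.28 (adjusted p = 0.18). None of the 3 passed without young mice 5 and 6 (adjusted p = 0.0683 to 0.107), and Mpv17l2 and Ddx28 did not pass with the length trend removed (adjusted p = 0.143 and 0.0761). Of 14 translation factors 2 were lower, against 23.0% of all genes tested, and 0 were higher, against 22.4%, with either edgeR or DESeq2, while 3 (Tufm, Gfm1 and Mtrf1) had positive estimates at an unadjusted p under 0.05 (median of the 14, 0.08). Of the 14, 1 was higher and 3 were lower with the length trend removed, 2 and 2 with the GC correction, and 1 and 1 without young mice 5 and 6. Gfm2, which recycles the ribosome after termination, was 15.01 to 20.3 CPM in young and 9.87 to 14.2 CPM in aged mice, without overlap (log2 fold change -0.50, adjusted p = 0.00252). Its table length is 5359 bases, and with the length trend removed it was at -0.26 (adjusted p = 0.0444). Mtrf1l, a release factor, gave -0.57 (adjusted p = 0.0356) and lost the call on leaving out any of young mice 5, 6 and 9 and aged mice 2, 5 and 6, and without young mice 5 and 6 together (adjusted p = 0.246). Mtrf1, its paralog, gave 0.77 at about 1 CPM in young mice (SE 0.31, adjusted p = 0.058), and passed without young mouse 9 or aged mouse 7 (lowest adjusted p = 0.0182) and with the GC correction (adjusted p = 0.0475).

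Of 7 genes of mitochondrial transcription and messenger RNA stability, 4 were higher, against 22.4% of all genes tested, and 0 were lower, against 23.0%, with a median of 0.22. DESeq2 called 2 higher, Tfam and Slirp, and the count lower was 0 with DESeq2 and at an unadjusted p under 0.05. Tefm, the elongation factor of mitochondrial transcription, was 0.71 to 1.28 CPM in young and 1.28 to 2.35 CPM in aged mice (log2 fold change 0.75, adjusted p = 0.0203), and lost the call without young mouse 6, with DESeq2 (adjusted p = 0.0645) and without the filter on low counts (adjusted p = 0.0658). Tfam, which packages mitochondrial DNA, gave 0.45 (adjusted p = 0.0335), Slirp, which stabilises mitochondrial messenger RNA, 0.65 (adjusted p = 0.0397) and Tbrg4 0.22 (adjusted p = 0.048). Without TMM factors Tfam, Slirp and Tbrg4 missed the threshold (adjusted p = 0.0838, 0.058 and 0.274). After thinning Tfam and Slirp missed it (adjusted p = 0.0712 and 0.0602), and with the GC correction Tbrg4 did (adjusted p = 0.128). Polrmt, the mitochondrial RNA polymerase, gave -0.29 (SE 0.36), with -0.47 to -0.02 on leaving out single mice and 0.18 without young mice 5 and 6. All 4 missed the threshold without young mice 5 and 6 (adjusted p = 0.0678 to 0.254). With the length trend removed Slirp, at 419 bases, was at 0.035 (adjusted p = 0.982) and Tefm at 0.52 (adjusted p = 0.129), and neither passed.

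The most similar families in the nuclear genome were taken for comparison. Of 74 tested nuclear genes for subunits of the respiratory chain and ATP synthase, 68 were higher in aged mice, with a median log2 fold change of 0.65 and a median length of 680 bases. Of 75 tested cytosolic ribosomal protein genes, 74 were higher, with a median of 0.88 and a median length of 725 bases. The mitoribosomal genes, at 31 of 72 and a median of 0.41, were longer than both families, and over all genes tested 22.4% were higher. With the length trend removed the counts were 25 of 74, 62 of 75 and 8 of 72, against 19.2% of all genes, and the medians 0.22, 0.43 and 0.09, so that the order of the 3 families was as before.

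Many mitoribosomal genes start next to a gene on the opposite strand. A gene on the other strand that started within 1000 bases upstream, or overlapped the start by up to 100 bases, was found for 26 of the 76 genes (34.2%) and for 15.97% of 9735 tested genes. Mrpl46 and Mrps11 form such a pair with each other, with starts 42 bases apart on chromosome 7, and both were higher in aged mice. Outside this pair 21 partners were tested, of which 4 were higher and 6 were lower, against 22.4% and 23.0% of all genes tested. Of 13 mitoribosomal genes that were higher and had a partner other than a member, Mrpl10 and Mrps21 had partners too low to test. Among the rest the partner was higher for 1, Mrpl32 with the proteasome gene Psma2 (0.55 and 0.64), and lower for 3. These were Mrps7 with Gga3 (0.54 and -0.46), Mrpl14 with Tmem63b (0.68 and -0.55) and Mrpl41 with Pnpla7 (0.54 and -0.47). Mrpl49 started 137 bases from Fau, a cytosolic ribosomal protein gene, and the 2 went apart, at -0.23 and 0.77. The members are otherwise spread over 17 chromosomes, with at most 10 on a single one, chromosome 11.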

How the data were processed

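Sorted M-MDSC RNA from 12 mice was prepared with a stranded TruSeq kit and sequenced in pairs. Per the file headers the authors counted fragments on exons of the mm10 annotation, stranded, with featureCounts 2.0.0 and a minimum mapping quality of 60, and deposited raw counts per gene. The aligner was not given in the sources used here, and aligned multi-mapping reads would be lost to genes with close copies. GENCODE names pseudogenes of Mrps36, Mrpl23 and Mrpl48, and Mrps6 and Mrpl53 share exon bases with Slc5a3 and Ccdc142 on their strand, so these values are uncertain.

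Counts were analysed with edgeR 4.0.16 (TMM, filterByExpr, quasi-likelihood test) over the 12 mice, with age as the single term. DESeq2 1.42.0, no TMM factors, other filters, thinning to the smallest total, GC and gene length corrections (a lowess fit on log2 length per library, used as an offset), each mouse left out and a block on mouse number were alternatives. Fits were tested on simulated data. A left-out pair, young mice 5 and 6, was chosen after seeing the data.

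The members and gene lists were chosen with earlier results of these data known. Genes named in each subunit are the 5 largest and 3 smallest estimates, the 3 smallest p-values, calls against the majority, the 5 most abundant not called, those not tested, the extremes per kilobase, the S18 homologs, Mrps30 and Mrps36, and in each related list the extremes and the smallest p. Other names (such as Mrps7, Mrps11, Mrps17, Mrpl17, Mrpl19, Mrpl41, Dap3, Tfam and Ybey) were added after their values were seen.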

Additional observations from a re-analysis of the deposited data

Results flagged for a closer look

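In 6 of 100 groups of 6 mice that were examined, a single mouse lay further from the rest than Dixon's 95% limit allows, and chance gives about 1 in 20. Aged mouse 2 had the highest Mrps18c level of its group, 21.9 CPM, with the next aged mouse at 18.7 CPM. Aged mouse 1 was highest for Mrpl49, at 7.79 CPM, next to 6.17 CPM. Young mouse 2 was lowest for Mrpl24, at 18.8 CPM, next to 22.9 CPM, and highest for Mrpl52, at 0.856 CPM, next to 0.462 CPM, but it had 4 Mrpl52 counts, as did young mice 5, 6 and 9, and the smallest library total, so the value says nothing of the gene. Aged mouse 4 was highest for Tefm, at 2.35 CPM, next to 1.67 CPM. The slope on gene length of aged mouse 7, -0.024 log2 units per doubling, lay apart from the other aged mice, of which the nearest was at -0.106.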

How the results depend on the processing

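The count of mitoribosomal genes higher in aged mice, 31, stayed within 1.5 times of that number under DESeq2, without TMM factors, with either other filter, after thinning, with the GC correction and without any single mouse (26 to 33). With the gene length correction it was 8 (1 Mrps and 7 Mrpl), of 72 tested genes, and their median was 0.094. Without young mice 5 and 6, chosen after seeing the data, it was 15 (5 Mrps and 10 Mrpl). The Mrps count of 9 was 5 without TMM factors and 5 after thinning, and 6 to 10 without any single mouse. The count of genes lower in aged mice, 2, was 4 with the length correction, 1 after thinning, 1 without young mice 5 and 6, and 1 to 2 without any single mouse. Calls among the members also changed elsewhere. After thinning Mrpl28, Mrpl42 and Mrpl48 were gained and Mrps7, Mrps11, Mrps15, Mrps17, Mrps24, Mrpl4, Mrpl13 and Mrpl19 lost, with the GC correction Mrps30 and Mrps31 gained and Mrps11 and Mrpl14 lost, without TMM factors Mrps7, Mrps11, Mrps17 and Mrps21 lost, and with DESeq2 or no filter Mrpl52 gained and Mrps11 lost. The difference of the medians, Mrps minus Mrpl, was -0.063 after thinning and -0.073 to 0.048 without any single mouse, so its sign was not fixed. With the length correction Mrps21 turned to -0.20 and Mrpl33 to -0.17, neither past the threshold. The cause of these changes was not tested. Without TMM factors the median of all genes was -0.08.

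Mouse numbers 1, 2, 5 and 6 occur in both groups but belong to different mice, and same-numbered mice deviated in opposite directions (correlations -0.246 to -0.0655), so the numbers do not pair the mice. With a replicate block on these 8 mice 30 genes were higher and 1 was lower, against 36 and 2 in the same 8 mice without the block, and Mrps15 was at -0.37 (adjusted p = 0.0617). The shares of all genes called in these fits are not given here, so the counts cannot be set against a background. No aged mouse correlated best with its own number.

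Depth limits the low members. The smallest library held 4613239 counts, in which 3 counts are worth 0.642 CPM, and of the 4 genes not tested Mrps6, Mrps28 and Mrps36 lay at 0 to 1.38 CPM in every mouse and Mrpl52 at 0.236 to 2.095 CPM.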
